A study of Mus musculus with 22 samples.

Results

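The comparison covered 9 of the 22 RNA-seq libraries of the series: all 7 libraries of reverted cells kept for 10 passages in 2iL (d16+10p) and both libraries of primed mouse epiblast stem cells (primed mEpiSCs). Members were taken by their labels, with no measured value used. The Oct4GIP line, which is XX and labelled as strain 129/Ola, carries an eGFP and puromycin-resistance transgene driven by Oct4 regulatory sequence. It gave 1 primed library and 5 reverted libraries, whose cells had been held for 16 days with AICAR, AICAR+LIF, A769662, A769662+LIF or metformin+LIF, agents that activate AMP-activated protein kinase (AMPK), before expansion. The 129/MSM line, which is XY, gave 1 primed library and 2 reverted libraries (AICAR and AICAR+LIF). The karyotypes and the transgene are those given in the methods. Every reverted library came from cells growing in 2iL, which combines inhibitors of MEK and GSK3 with leukemia inhibitory factor (LIF), and both primed libraries from cells growing in FGF2 and Activin A. State and growth medium therefore cannot be told apart in any comparison given here. Each state of each line under each agent is 1 library, so the p-values measure the spread between these 9 libraries. Because each line has 1 primed library, fits of 1 line alone and the line-by-state test take that spread from reverted libraries only. The fit of all 9 libraries adds to it only the difference between the lines in the change of state. None of these fits holds an estimate of the spread between primed libraries of a line.

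Naive pluripotent cells correspond to the epiblast before implantation and primed cells to the epiblast after it. The naive network is held by LIF-STAT3 signalling and by WNT signalling through beta-catenin, and is left behind when FGF signals through MEK and ERK. Passage to the primed state is known to bring epithelial polarity, new DNA methylation, stronger reliance on glycolysis and, in XX cells, inactivation of one X chromosome. The question was which pathways and gene families differed between the primed cells and the reverted cells that descended from them.

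Total counts per library ran from 1689495 to 3380314, and a count of 0 allowed a level of up to 1.131 CPM (counts scaled by library size) in a primed library and 1.786 CPM in a reverted library (3 counts, counting error only). All levels below are CPM scaled with TMM factors. Levels of primed cells are given for Oct4GIP first and 129/MSM second, and levels of reverted cells as the median of the 7 libraries with the lowest and highest in parentheses. Where a gene had no primed count, its fold is a lower bound that sets the mean of the 7 reverted libraries against 1.131 CPM. Fold changes are log2 values of reverted against primed with the cell line as a covariate, given with their standard error (SE) and the adjusted p of edgeR's quasi-likelihood test over all genes tested. The shared pluripotency factor Sox2 and the naive marker Pecam1 were measured in every library. Sox2 rose from 60.3 and 54.1 CPM to 299 CPM (251 to 349). Pecam1, an adhesion molecule of naive cells, rose from 4.15 and 7.17 CPM to 147 CPM (106 to 182). The defining markers of trophoblast, Cdx2 and Elf5, and of neural precursors, Sox1 and Pax6, had no level above 3.83 CPM in any of the 9 libraries.

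Differences in culture between the primed lines touch several lists. The Oct4GIP mEpiSCs were grown on fibronectin and the 129/MSM mEpiSCs on mouse embryonic fibroblast feeders. The base medium was serum-free for Oct4GIP and held Knockout Serum Replacement for 129/MSM. Line, feeders and base medium therefore cannot be told apart in the primed libraries. Over all 25 feeder fibroblast markers the summed level was 273 CPM in primed Oct4GIP, 1872 CPM in primed 129/MSM and 64.7 CPM (40.8 to 91.5) in the reverted libraries. Of the 12 that passed the filter on low counts, 9 fell and 0 rose (median -3.17, and -2.08 in Oct4GIP alone and -3.73 in 129/MSM alone). Markers of mesendoderm and of neural cells were mostly below the filter, with 6 and 6 tested, 3 and 3 lower and 1 and 1 higher. Mesendoderm markers summed to 76.5 CPM in primed Oct4GIP, 2017 CPM in primed 129/MSM and 136 CPM (81.6 to 681) in the reverted libraries, with a median change of -0.64 in Oct4GIP alone and -3.96 in 129/MSM alone. The neural medians were -1.48 and -0.71. Of 13 tested markers of primitive endoderm and trophoblast 4 rose and 6 fell (median 0.44 in Oct4GIP alone, -2.96 in 129/MSM alone). Those that rose were the trophoblast factors Tfap2c, Tfap2a and Tead4 and the laminin chain Lama1, by 3.09, 4.11, 3.23 and 3.88 on the log2 scale. Postn, Dcn and Prrx1 had 54.1, 45.6 and 22.5 CPM in primed 129/MSM and at most 0.754 CPM in primed Oct4GIP. In bulk RNA fewer cells of a type and less RNA per cell cannot be told apart. For the lists of matrix genes below, medians of each line alone are therefore given too.

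Of 14506 genes tested, 6363 passed an adjusted p of 0.05, which is 43.9% of those tested. Higher levels in reverted cells were called for 3270 genes (22.5%) and lower levels for 3093 (21.3%). The median log2 fold change over all tested genes was 0.024. Changes of at least 4 on the log2 scale were more often upward, with 552 genes higher and 300 lower, and 260 of the genes called higher had no count in either primed library. Those 260 passed the filter on low counts only through reverted libraries and could only be called higher. No count in all 7 reverted libraries was found for 7 genes called lower. The 2 numbers cannot be set against each other, because no count is easier to meet in 2 libraries than in 7. The filter also dropped genes high in 1 primed library alone, such as Cyp26a1. Both limits bear on the 552 and 300 genes as well. In 6311 genes (43.5%) the 7 reverted and 2 primed libraries did not overlap. Many named genes were chosen for the size of their change, so a lack of overlap among them is partly set by that choice. Because such a large share of genes was called, each gene list below is read against these shares. The lists were described by counts and medians with no test of the list itself. Each line has 1 primed library, so leaving that library out makes the fold change that of the other line alone. Where leaving out any 1 of the 9 libraries changed a call of a named gene, or moved the number of called members of a list by over 1.5 times, the value without it follows the result. The share of tested genes called was 31.0% without primed Oct4GIP (14.2% higher, 16.8% lower) and 46.5% without primed 129/MSM (23.7% higher, 22.8% lower).

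**Figure D1:**
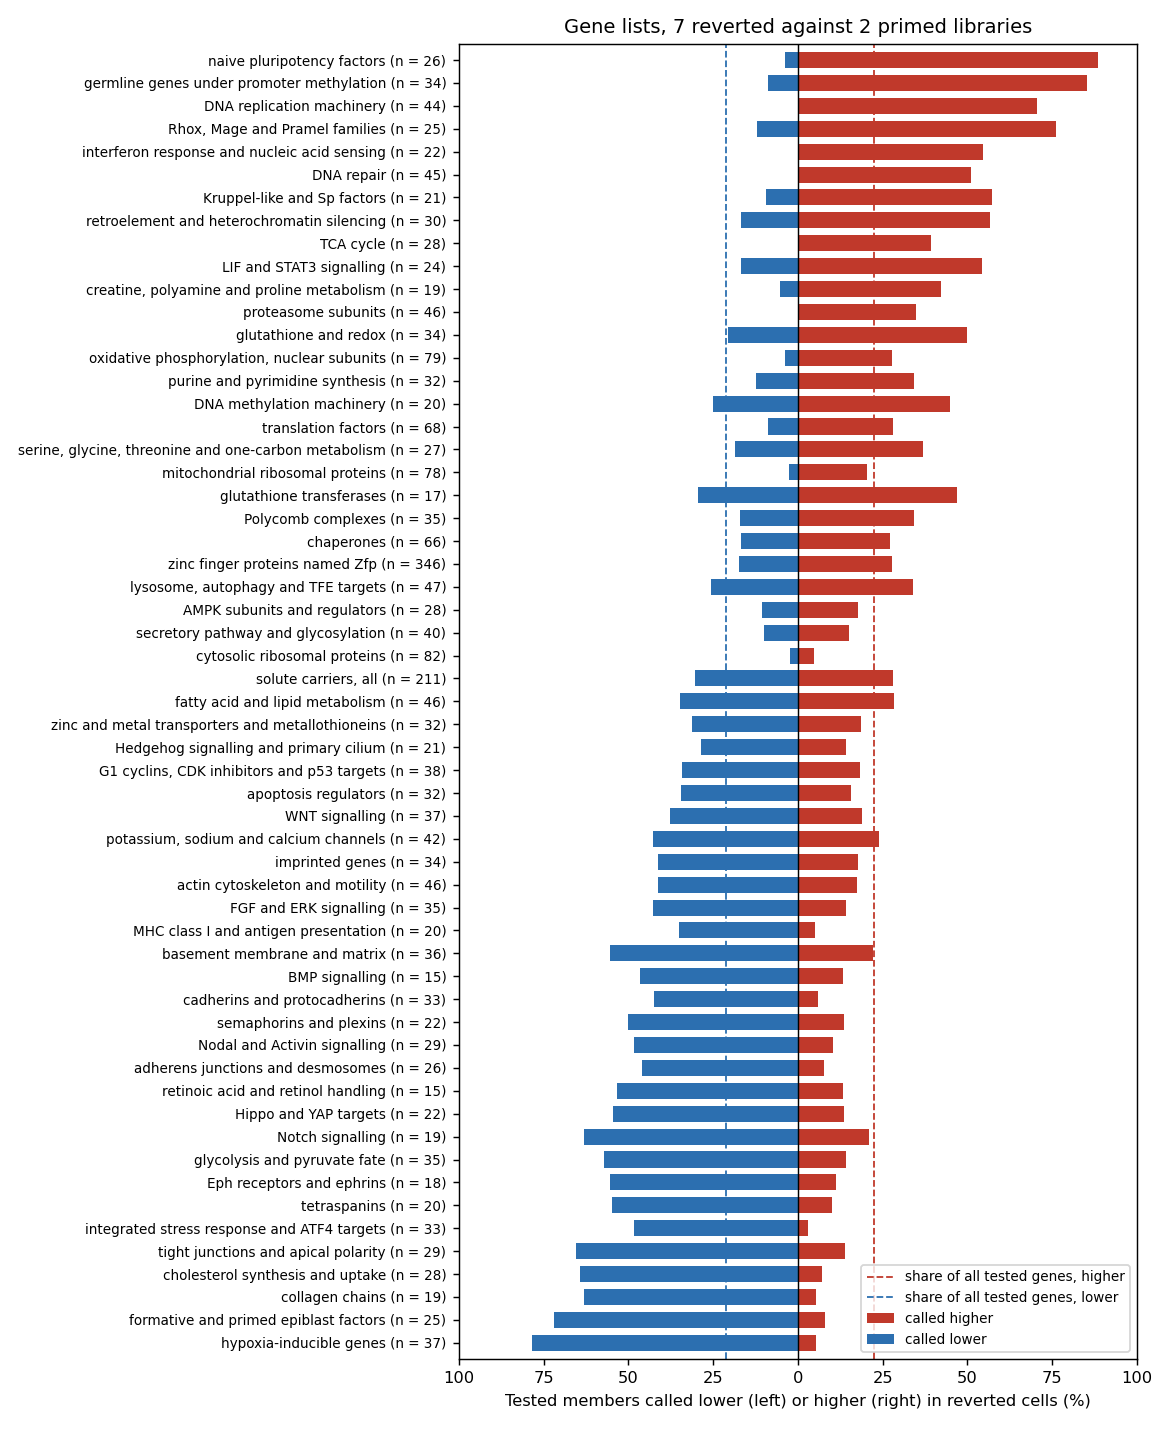
Share of tested members of each gene list called higher (right, red) or lower (left, blue) in the 7 reverted libraries than in the 2 primed libraries, in percent, with the number of tested members beside each name. Dashed lines mark the shares over all 14506 tested genes (22.5% higher, 21.3% lower). The 57 lists drawn each have at least 15 tested members and are ordered by the difference of both shares. Naive factors, germline genes, the Rhox, Mage and Pramel families and DNA replication genes extend furthest to the right, and hypoxia-inducible genes, formative and primed factors and tight junction genes furthest to the left. No primed count was found for 16 of 34 germline and 14 of 25 Rhox, Mage and Pramel members, which could only be called higher. The hypoxia list was drawn up after these values were seen.

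The naive network and its counterpart in primed cells moved apart in opposite directions. Of 26 tested naive pluripotency factors 23 rose and 1 fell, with a median log2 fold change of 5.60 (5.29 with the genes absent from both primed libraries set at their bound). Of 21 tested Kruppel-like and Sp factors 12 rose and 2 fell (median 0.61). One of them, Klf4, which acts downstream of STAT3, was at 0.754 and 3.91 CPM in primed cells and 146 CPM (97.6 to 290.3) in reverted cells, a log2 fold change of 6.35 ± 0.38 (adjusted p = 7.4e-07). Tbx3, a T-box factor that can stand in for LIF, rose from 0 and 5.54 CPM to 173 CPM (147 to 253). Prdm14, which restrains FGF signalling and DNA methylation, had 1 count over both primed libraries and 58.3 CPM (47.1 to 102) in reverted cells, a ratio of 386 (95% exact Poisson interval 69.2 to 15232). Among the 25 formative and primed epiblast factors 18 fell and 2 rose. Otx2, a homeobox factor that directs the exit from the naive state, fell from 85.6 and 412 CPM to 2.30 CPM (1.19 to 5.96), a log2 fold change of -5.64 ± 0.44 (adjusted p = 4.4e-06). Sox11, a SoxC factor of the postimplantation epiblast, fell from 126 and 109.8 CPM to 3.83 CPM (0 to 14.6). Pim2, a serine/threonine kinase, was at 1363 and 509 CPM in primed cells and 18.9 CPM (8.32 to 34.6) in reverted cells, with changes of -5.76 in Oct4GIP alone and -5.80 in 129/MSM alone (log2 fold change -5.79 ± 0.22, adjusted p = 4.3e-08). In each of the 6 genes named here the primed and reverted libraries did not overlap, as was so in 43.5% of all genes tested.

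Ooep, Khdc3, Acsbg3 and Zscan4c had no primed count and were measured in every reverted library. Genes with no primed count passed the filter on low counts only through the reverted libraries and could only be called higher. Ooep, a subunit of the subcortical maternal complex, had no count in either primed library and was at 39.2 CPM (33.7 to 128) in reverted cells, at least 54.1-fold higher when the primed level is set at 3 counts. Khdc3, another subunit of that complex, was likewise absent from both primed libraries and at 19 CPM (7.27 to 52.5), at least 23.5-fold higher. Acsbg3, an acyl-CoA synthetase of the bubblegum family, went from no count to 71.1 CPM (53.2 to 147), at least 75.2-fold higher. Zscan4c, a marker of a rare state that resembles the cleaving embryo, had no primed count and only 1.79 CPM (0.765 to 9.33) in reverted cells. Zscan4c belongs to a list of two-cell-like and preimplantation genes that does not hold Ooep, Khdc3 or Acsbg3. Of its 9 tested members 5 rose and 0 fell, while 16 did not pass the filter on low counts. Of the 9 tested, 6 had no primed count and so passed the filter only through the reverted libraries. The members that rose were Zscan4 genes and, by 0.91 and 0.80 on the log2 scale, Eif1a and Zfp809. The number called was 2 without primed Oct4GIP, 1 without primed 129/MSM, and 2, 3 and 2 without reverted Oct4GIP AICAR+LIF, Oct4GIP metformin+LIF and 129/MSM AICAR. Zfp809 lost its call without primed 129/MSM (0.53). Zscan4c lost its call without primed Oct4GIP (5.64), primed 129/MSM (6.36) or reverted 129/MSM AICAR (5.62).

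Called genes of the FGF-MEK-ERK cascade were mostly lower, though the ligand that naive cells make themselves was higher. Of 35 tested FGF and ERK genes 15 fell and 5 rose (median -1.15). The median turned with the line, at 0.31 in Oct4GIP alone and -1.46 in 129/MSM alone, and 5 members had an interaction. Fgf4, the autocrine ligand of naive cells, rose from 5.28 and 5.87 CPM to 213 CPM (117 to 269), a log2 fold change of 5.27 ± 0.35 (adjusted p = 1.6e-06). Its receptor Fgfr1 had 201 and 147 CPM in the primed libraries and 124 CPM (91.7 to 159) in reverted cells, values that overlap and did not pass the test (adjusted p = 0.068). Dusp6, the phosphatase that ERK induces against itself, fell from 275 and 116 CPM to 2.78 CPM (1.5 to 6.49), the highest reverted library lying far below both primed ones (log2 fold change -5.81 ± 0.33, adjusted p = 4.7e-07). Spry1, another feedback inhibitor, fell from 11.7 and 28.7 CPM to 7.07 CPM (3.61 to 8.74). The ETS factors Etv4 and Etv5, which are usually read as ERK targets, differed from each other. Etv4 had 119.9 and 44.6 CPM in primed cells, 0.397 and 1.25 CPM in the 2 reverted 129/MSM libraries and 22.2 to 77.9 CPM in the 5 reverted Oct4GIP libraries. It was called lower (log2 fold change -2.55 ± 0.70, adjusted p = 0.013), although some reverted Oct4GIP libraries lay above primed 129/MSM. Etv5 was at 256 and 153 CPM in primed cells and 404 CPM (362 to 486) in reverted cells, a log2 fold change of 1.03 ± 0.21 (adjusted p = 0.0022). Fgfr1 passed the test, as lower, when reverted Oct4GIP AICAR (-0.44) or metformin+LIF (-0.54) was left out, and Spry1 lost its call without primed 129/MSM (-1.09).

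LIF receptors and STAT3 outputs were higher in reverted cells, which were grown with LIF. Of 24 tested members of the LIF-STAT3 list 13 rose and 4 fell (median 0.97). The receptor chains Lifr and Il6st rose by 2.00 ± 0.20 and 1.84 ± 0.15 on the log2 scale, with no overlap between groups. Socs3, the feedback inhibitor of the receptor, rose from 5.66 and 16.9 CPM to 33.9 CPM (24.7 to 66.1). Bcl3, a coactivator induced by STAT3, rose from 0.377 and 2.61 CPM to 41.7 CPM (31.6 to 65.7), a log2 fold change of 4.79 ± 0.55 (adjusted p = 5.6e-05). Stat5a and Stat5b, which serve other cytokine receptors, fell by 1.12 and 1.58 on the log2 scale. Both calls rested on primed Oct4GIP, without which the changes were -0.17 and -1.15, and that of Stat5a was also lost without reverted Oct4GIP AICAR+LIF (-1.12), Oct4GIP A769662 (-1.03) or 129/MSM AICAR+LIF (-1.10).

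The WNT list held members with opposite changes. Of 37 tested members 7 rose and 14 fell (median -0.77, the same with genes absent from primed cells at their bound). Some direct targets of beta-catenin rose. Axin2, the feedback inhibitor that scaffolds beta-catenin destruction, was at 13.2 and 8.80 CPM in primed cells and 115 CPM (84.7 to 163) in reverted cells, a log2 fold change of 3.41 ± 0.35 (adjusted p = 2.7e-05). Sp5 rose from 0 and 2.93 CPM to 66.5 CPM (38.3 to 83.1). Notum, a secreted hydrolase that inactivates WNT ligands, rose from 1.13 and 1.30 CPM to 56.9 CPM (19.9 to 74.9). The homeobox gene Cdx1 had no count in either primed library and 22.5 CPM (14.7 to 78.2) in reverted cells, at least 28.5-fold higher. Other targets did not rise. Nkd1 and Nkd2, feedback inhibitors of the pathway, fell by 1.57 and 1.92 on the log2 scale, and both lost their call without primed Oct4GIP (-0.19 and -1.5). The nuclear factors Lef1 and Tcf7 did not pass the test (adjusted p = 0.47 and 0.96), though Tcf7 did, as higher, without primed Oct4GIP (0.73). Of 8 tested Frizzled receptors in the list 5 fell, 1 rose and 2 did not pass the test. Fzd2 was at 33.2 and 48.9 CPM in primed cells and 6.32 CPM (0.832 to 11.9) in reverted cells. Fzd3 fell from 49.4 and 40.4 CPM to 9.94 CPM (8.17 to 15.5). Fzd10 rose from 21.1 and 11.4 CPM to 84.7 CPM (55.1 to 94.7), the reverse order. Fzd5 and Fzd7 did not pass the test (adjusted p = 0.34 and 0.12), and Fzd7 did, as lower, without primed Oct4GIP (-1.97) or reverted Oct4GIP AICAR (-1.06). Tcf7l1, the repressor that GSK3 inhibition relieves, did not pass the test for the state (adjusted p = 0.28), and its change differed between the lines, at 1.66 in Oct4GIP and -0.44 in 129/MSM (interaction adjusted p = 0.0072). It passed the test, as higher, when primed 129/MSM was left out.

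TGF-beta family genes changed in both directions. Of 29 tested Nodal and Activin genes 14 fell and 3 rose (median -0.78). Lefty1, a Nodal inhibitor and target, fell (log2 fold change -1.90 ± 0.35, adjusted p = 0.0013), whereas its paralog Lefty2 rose from 6.41 and 54.7 CPM to 107 CPM (55.3 to 642). Gdf3, a TGF-beta family ligand of pluripotent cells, had 3 counts over both primed libraries and 99.9 CPM (79.2 to 121) in reverted cells, a ratio of 192 (95% exact Poisson interval 65.7 to 932). Pcsk6, a convertase that cleaves Nodal precursors, was at 3.77 and 2.93 CPM in primed cells and 119 CPM (101 to 157) in reverted cells, a log2 fold change of 5.28 ± 0.24 (adjusted p = 1.4e-07). Nodal itself was at 54.7 and 70.1 CPM in primed cells and 79.4 CPM (64.0 to 113) in reverted cells, which overlaps and did not pass the test (adjusted p = 0.23). Of 15 tested BMP genes 7 fell and 2 rose (median -0.86). Bambi, a decoy receptor, fell from 53.9 and 42.0 CPM to 7.51 CPM (4.81 to 11.9). Id4 rose from 0.754 and 3.58 CPM to 17.0 CPM (7.82 to 20.3). When primed 129/MSM was left out, Nodal passed the test as higher (0.76) and the BMP genes gave 2 rises and 3 falls.

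Notch and Hippo lists leaned downward, and the Hedgehog list stayed near the background. Of 19 tested Notch genes 12 fell and 4 rose (median -0.70). The ligand Dll1 was at 25.3 and 13.4 CPM in primed cells and 0.795 CPM (0.595 to 1.91) in reverted cells, a log2 fold change of -4.39 ± 0.37 (adjusted p = 7.7e-06). The receptor Notch3 fell from 287 and 337 CPM to 41.7 CPM (32.3 to 75.8). The ligand Jag2 fell from 126 and 45.6 CPM to 12.7 CPM (7.84 to 17.0). None of the 3 overlapped between groups, as was so in 43.5% of all genes tested. Of 22 tested Hippo and YAP genes 12 fell and 3 rose (median -1.0). Ccn1, a secreted YAP target, was at 51.6 and 313 CPM in primed cells and 2.78 CPM (0.595 to 5.87) in reverted cells, a log2 fold change of -5.19 ± 0.55 (adjusted p = 3.4e-05), and of -3.77 in Oct4GIP alone. The TEAD factors that carry YAP to DNA went separate ways, since Tead2 fell by 1.57 ± 0.16 while Tead4 rose by 3.23 ± 0.50 on the log2 scale. Hedgehog genes of successive steps went in opposite directions. Smo, the signal transducer of the pathway, fell from 130.4 and 133 CPM to 15 CPM (9.80 to 32.2), a log2 fold change of -2.86 ± 0.24 (adjusted p = 7.5e-06). Gli2, one of its transcription factors, rose from 4.52 and 19.6 CPM to 127 CPM (109 to 152), a log2 fold change of 3.51 ± 0.37 (adjusted p = 3.3e-05). Of the 21 tested Hedgehog and cilium genes 3 rose (14.3%) and 6 fell (28.6%), with a median of -0.18 and of -0.02 in Oct4GIP alone. With primed Oct4GIP left out, 1 rose and 2 fell.

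The AMPK list, the target of the agents used for reversion, showed fewer calls than the background. Besides subunits, regulators and targets of AMPK the list holds the p38 kinase genes, which the paper places downstream of AMPK. Of its 28 tested members 5 rose (17.9%) and 3 fell (10.7%), with a median of 0.09. All 3 that fell were p38 kinase genes (log2 fold changes of -2.60, -4.67 and -2.36). A further p38 gene was among those that rose (0.56). The catalytic subunits overlapped between groups. Prkaa1 was at 44.1 and 57.4 CPM in primed cells and 55.1 CPM (46.6 to 69.9) in reverted cells (adjusted p = 0.48). Prkaa2 was at 43.7 and 36.5 CPM in primed cells and 36.1 CPM (26.4 to 51.3) in reverted cells (adjusted p = 0.68). Ulk1, the autophagy kinase that AMPK phosphorylates, rose from 74.3 and 67.8 CPM to 412 CPM (323 to 575), a log2 fold change of 2.54 ± 0.23 (adjusted p = 1.4e-05). The study's methods give 2iL as the medium of the 10 passages, so these levels are those of cells after the agents. The low count rested on primed 129/MSM, without which 8 members rose and 5 fell, against 46.5% of all genes tested in that fit.

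Epithelial polarity and adhesion genes fell in large part. Of 29 tested tight junction and apical polarity genes 19 fell and 4 rose, with a median of -1.18 (-0.85 in Oct4GIP alone, -1.16 in 129/MSM alone). Podxl, an apical sialomucin that lines the lumen of epiblast rosettes, was at 139 and 695 CPM in primed cells and 13.5 CPM (8.42 to 18.7) in reverted cells. Ocln, a tight junction protein, fell from 14.3 and 32.9 CPM to 2.11 CPM (1.19 to 7.55). The scaffold Patj fell from 46.7 and 103 CPM to 8.65 CPM (4.99 to 13.1), a log2 fold change of -3.15 ± 0.36 (adjusted p = 6.0e-05). The claudins, which seal tight junctions, split. Cldn6 was at 36.6 and 281 CPM in primed cells and 4.21 CPM (0.618 to 7.74) in reverted cells. Cldn4 rose from 1.51 and 27.0 CPM to 94.3 CPM (63.2 to 122). Epcam, an adhesion molecule of epithelia, fell from 249 and 202 CPM to 37.9 CPM (24.7 to 76.8), a log2 fold change of -2.55 ± 0.30 (adjusted p = 7.4e-05). Of 26 tested adherens junction and desmosome genes 12 fell and 2 rose, and of 33 cadherins and protocadherins 14 fell and 2 rose. Perp, a component of desmosomes, was at 176 and 90.9 CPM in primed cells and 5.95 CPM (0.795 to 12.6) in reverted cells. Cdh2, the N-cadherin that rises in primed cells, fell by 1.58 ± 0.22, and Cdh1, the E-cadherin, had 162 and 767 CPM in the primed libraries and 734 CPM (609.8 to 1088) in reverted cells, an overlap that came from primed 129/MSM. The rise of Cdh1 (log2 fold change 1.17 ± 0.43, adjusted p = 0.044) was lost without primed Oct4GIP (0.21) and without any of the reverted libraries except 129/MSM AICAR (1.12 to 1.26). Cadherins and protocadherins gave 0 rises and 10 falls without primed Oct4GIP.

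Matrix genes were mixed, in that nidogens and fibronectin rose and collagens fell. Of 36 tested basement membrane and matrix genes 20 fell and 8 rose, with a median of -1.20 in Oct4GIP alone and -1.37 in 129/MSM alone. Nid1 and Nid2, which link laminin to collagen IV, rose by 2.66 ± 0.41 and 1.75 ± 0.15 with no overlap. Fn1, the gene of fibronectin, rose from 150.4 and 1229 CPM to 2462 CPM (2209 to 2989), and its rise was larger in Oct4GIP (4.11) than in 129/MSM (1.07, interaction adjusted p = 4.0e-04). Of 19 tested collagen chains 12 fell and 1 rose, with a median of -1.47 in Oct4GIP alone and -4.22 in 129/MSM alone. Col4a1, a chain of basement membrane collagen, fell from 28.3 and 375 CPM to 8.42 CPM (1.96 to 25.8), a change of -2.24 in Oct4GIP alone. The collagen medians move with the feeder markers given above, whose part in them was not tested. Plod2, a lysyl hydroxylase that modifies collagen, was at 1799 and 823 CPM in primed cells and 30.3 CPM (18.0 to 59.3) in reverted cells, a change of -5.76 in Oct4GIP alone and -3.90 in 129/MSM alone. Its relative Plod1 did not pass the test (log2 fold change -0.65, adjusted p = 0.19). Loxl2, a lysyl oxidase, fell from 111 and 257 CPM to 10.2 CPM (5.96 to 14.4), a log2 fold change of -4.13 ± 0.31 (adjusted p = 3.7e-06), and its change was -3.26 in Oct4GIP alone and -5.17 in 129/MSM alone.

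Several genes of cell shape and guidance fell, though the cytoskeleton list had medians of opposite sign in the lines. Myl9, a myosin light chain of contractile cells, fell from 17.0 and 13.0 CPM to 0.301 CPM (0 to 0.765), a log2 fold change of -5.60 ± 0.53 (adjusted p = 1.6e-05). Tpm1, a tropomyosin, was at 336 and 539 CPM in primed cells and 56.8 CPM (30.4 to 81.9) in reverted cells. The calcium-dependent membrane binder Anxa2 and its partner S100a10 fell by 5.15 ± 0.40 and 2.71 ± 0.22 on the log2 scale. Of 46 tested cytoskeleton and motility genes 19 fell and 8 rose (median -0.50). The median was 0.14 in Oct4GIP alone and -1.07 in 129/MSM alone, and 11 members had an interaction. Keratin 8, encoded by Krt8, fell from 44.1 and 634 CPM to 9.52 CPM (0.927 to 10.4). In Oct4GIP alone, where feeder markers also fell (median -2.08), the changes of Myl9, Tpm1, Anxa2 and Krt8 were -5.14, -2.37, -4.69 and -2.90. Of 18 tested Eph receptors and ephrins 10 fell and 2 rose, and of 22 semaphorins and plexins 11 fell and 3 rose. Epha4, a receptor for ephrins, was an exception at 5.28 and 18.9 CPM in primed cells and 127 CPM (92.9 to 186) in reverted cells, a log2 fold change of 3.62 ± 0.32 (adjusted p = 1.0e-05). Itgb1, the common beta chain of matrix integrins, fell from 566 and 555 CPM to 138 CPM (113 to 218), a log2 fold change of -1.84 ± 0.23 (adjusted p = 9.5e-05).

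Genes of glycolysis and of the fate of pyruvate differed between the states. Of 35 tested glycolysis and pyruvate genes 20 fell and 5 rose, with a median of -0.64, and their summed level went from 17808 and 23679 CPM to 10823 CPM (9958 to 11909.6). Pfkl, a phosphofructokinase subunit, was at 574 and 698 CPM in primed cells and 79.4 CPM (42.1 to 126) in reverted cells, a log2 fold change of -2.92 ± 0.23 (adjusted p = 4.3e-06). Ldha, which turns pyruvate into lactate, fell from 955 and 2943 CPM to 244 CPM (127 to 562), a log2 fold change of -2.35 ± 0.29 (adjusted p = 8.8e-05), while Ldhb, whose product favours the reverse reaction, rose from 123 and 85.0 CPM to 416 CPM (228 to 505), a log2 fold change of 1.65 ± 0.21 (adjusted p = 1.2e-04). Slc16a3, the lactate exporter, was at 77.3 and 366 CPM in primed cells and 13.7 CPM (0.653 to 24.6) in reverted cells. Pdk1, a kinase that blocks pyruvate entry into mitochondria, fell from 73.5 and 152 CPM to 9.63 CPM (3.27 to 66.1), and its target Pdha1 rose by 0.82 ± 0.17 on the log2 scale. The other genes of this kinase family were split, with log2 fold changes of -1.94 (called lower), 2.16 (called higher) and 0.57 (not called). Hk2 had overlapping levels of 156 and 384 CPM in the primed libraries and 228 CPM (162 to 290.3) in reverted cells.

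**Figure D2:**
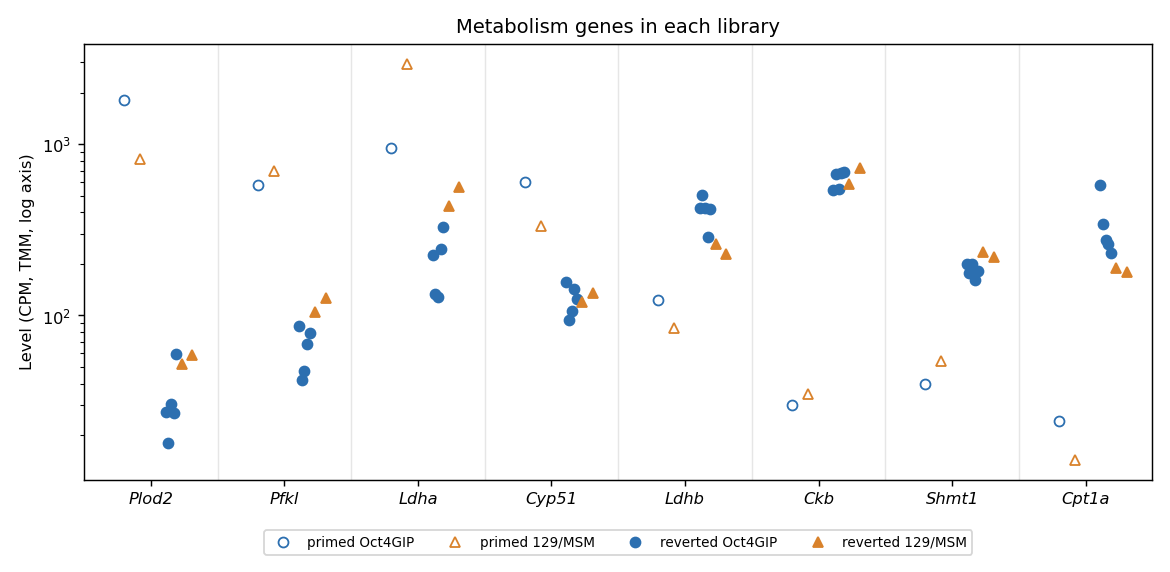
Levels of 8 metabolism genes in each library (CPM scaled with TMM factors, log axis). Primed libraries are open symbols and reverted libraries filled, with circles for Oct4GIP and triangles for 129/MSM. The reverted libraries of Plod2, Pfkl, Ldha and Cyp51 lie below both primed libraries, and those of Ldhb, Ckb, Shmt1 and Cpt1a lie above both.

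Several of the glycolytic genes that fell are known targets of hypoxia-inducible factors, so a list of 42 hypoxia-inducible genes was drawn up after these values were seen. Of 37 tested members 29 fell and 2 rose, and the median was -1.77 (-0.88 in Oct4GIP alone, -2.22 in 129/MSM alone). The members that fell include Pgk1, a glycolytic kinase, at 1721 and 1429 CPM in primed cells and 334 CPM (227 to 363) in reverted cells, a log2 fold change of -2.30 ± 0.17 (adjusted p = 3.4e-06). Vldlr, a lipoprotein receptor, fell from 121 and 106 CPM to 9.18 CPM (4.33 to 12.5), a log2 fold change of -3.74 ± 0.27 (adjusted p = 2.3e-06). The members that rose were Kdm3a, a histone demethylase, and Hk1, a hexokinase, and both lost their call without primed Oct4GIP (0.36 and 0.54). The oxygen level of the cultures is not given in the sources used here. Promoters of these genes were searched for the core word of the hypoxia response element, ACGTGC, on either strand. It was present in 14 of 24 fallen members with a RefSeq promoter window (of 29 in all), 58.3%, and in 15 of 32 tested members whatever their call (46.9%), against 9.82% of the 9861 tested genes with a window (of 14506 tested) and 9.06% of those called lower. A window runs from 250 bases before to 50 bases after a start, and the word can overlap the CACGTG searched below. This word and those searched below were chosen after the values were seen. The 3 fallen members with the largest change and a word before the start are shown 5′ to 3′, with the word in capitals.
Slc16a3 (GRCm38.p6 chr11:120949021-120949066, plus strand): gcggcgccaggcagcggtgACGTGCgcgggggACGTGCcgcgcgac
P4ha2 (GRCm38.p6 chr11:54100814-54100883, plus strand): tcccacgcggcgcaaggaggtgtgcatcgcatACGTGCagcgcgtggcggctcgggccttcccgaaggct
Ddit4 (GRCm38.p6 chr10:59951920-59951989, minus strand): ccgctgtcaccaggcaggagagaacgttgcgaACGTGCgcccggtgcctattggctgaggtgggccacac
P4ha2, which encodes a collagen prolyl hydroxylase, was at 59.6 and 56.4 CPM in primed cells and 5.36 CPM (3.27 to 6.55) in reverted cells. Ddit4, an inhibitor of mTOR signalling, fell from 652 and 439.9 CPM to 66.2 CPM (46.6 to 91.8). Both fell in each line alone, by 3.50 and 3.08 in Oct4GIP and by 3.47 and 3.01 in 129/MSM on the log2 scale.

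Mitochondrial and anabolic genes changed by smaller amounts, and their lists differed in the share that rose. Of 79 tested nuclear subunits of the respiratory chain 22 rose and 3 fell, with a median of 0.18, and 22 of 79 is 27.8% against the 22.5% of all genes. Of 78 mitochondrial ribosomal protein genes 16 rose and 2 fell (median 0.19), and the share that rose, 20.5%, was below that of all genes. The 13 transcripts encoded in the mitochondrion gave 1 rise, that of mt-Nd1, and their share of all counts was 2.18% and 1.77% in the primed libraries and 1.72% (1.43 to 2.37) in the reverted ones, which overlap (difference of means -0.106 percentage points, two-sided exact permutation p = 0.722, and 0.101 without primed Oct4GIP). Of 28 tested TCA cycle genes 11 rose (39.3%) and 0 fell, among them Idh2, which makes NADPH in mitochondria, at 75.4 and 61.6 CPM in primed cells and 174 CPM (137 to 275) in reverted cells. Of 32 tested purine and pyrimidine genes 11 rose (34.4%) and 4 fell (median 0.43). Tk1, thymidine kinase, rose from 16.2 and 39.1 CPM to 90.3 CPM (69.2 to 109). Ppat, the first committed enzyme of purine synthesis, was at 67.5 and 114 CPM in primed cells and 179.7 CPM (162 to 208) in reverted cells. Upp1, a uridine phosphorylase, rose from 16.6 and 19.6 CPM to 239 CPM (185 to 381), a log2 fold change of 3.71 ± 0.32 (adjusted p = 9.3e-06). The median of the nuclear respiratory subunits was 0.24 in Oct4GIP alone and 0.25 in 129/MSM alone. The medians were 0.21 and 0.21 for the mitochondrial ribosomal proteins and 0.38 and 0.27 for the TCA cycle. The number of calls in these lists, however, depended on primed Oct4GIP. Without it 12 nuclear respiratory subunits, 5 mitochondrial ribosomal protein genes and 6 TCA cycle genes rose, against 14.2% of all genes in that fit, 0, 0 and 1 fell, and mt-Nd1 lost its call (0.46). The mitochondrially encoded transcripts gave 3 rises and 1 fall without primed 129/MSM, and 2 rises without reverted 129/MSM AICAR+LIF.

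Enzymes of threonine, glycine and serine differed between the states. Of 27 tested members of that list 10 rose and 5 fell (median 0.33, the same with genes absent from primed cells at their bound). Tdh, threonine dehydrogenase, which mouse naive cells depend on, had 2 counts over both primed libraries and 678 CPM (469 to 795) in reverted cells, a ratio of 1826 (95% exact Poisson interval 505 to 15077). Shmt1 and Amt are enzymes that pass carbon between glycine and folate. Shmt1 rose from 40.0 and 54.1 CPM to 199 CPM (161 to 234). Amt was at 41.8 and 38.8 CPM in primed cells and 168 CPM (147 to 217) in reverted cells. Every reverted library lay above both primed libraries in these genes, while 43.5% of all genes tested had no overlap in either direction. Phgdh, the first enzyme of serine synthesis, fell and was at 398 and 116 CPM in primed cells and 92.6 CPM (49.5 to 121) in reverted cells, where primed 129/MSM lay within the reverted range. Ckb, creatine kinase, rose from 30.2 and 34.9 CPM to 669 CPM (539 to 721), a log2 fold change of 4.30 ± 0.20 (adjusted p = 1.6e-07), and its creatine importer Slc6a8 rose by 1.91 ± 0.25 on the log2 scale. Without primed Oct4GIP the list gave 8 rises and 2 falls and Phgdh lost its call (-0.43).

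Sterol synthesis genes were lower at most steps. Of 28 tested cholesterol genes 18 fell and 2 rose, with a median of -0.89. Cyp51, which removes a methyl group from lanosterol, fell from 601 and 333 CPM to 124 CPM (94.4 to 157), a log2 fold change of -1.91 ± 0.20 (adjusted p = 3.6e-05). Hmgcs1, at the head of the pathway, was at 1009.6 and 1029 CPM in primed cells and 329 CPM (300.2 to 504) in reverted cells. The sterol exporter Abca1 rose from 2.26 and 14.3 CPM to 46.4 CPM (20.5 to 79.8). Soat1, which esterifies cholesterol for storage, fell from 1202 and 422 CPM to 27.4 CPM (9.15 to 62.0), a log2 fold change of -4.95 ± 0.46 (adjusted p = 1.4e-05). Fatty acid genes were divided, with 13 of 46 higher and 16 lower. Cpt1a, the gate for fatty acid entry into mitochondria, was at 24.1 and 14.3 CPM in primed cells and 261 CPM (179 to 579.8) in reverted cells, a log2 fold change of 3.75 ± 0.39 (adjusted p = 3.1e-05), and Fabp5, a fatty acid carrier, fell from 66.4 and 65.5 CPM to 8.49 CPM (3.09 to 13.7). Without primed Oct4GIP 11 cholesterol genes fell and 2 rose.

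Redox and transport genes added members with large changes. Of 34 tested glutathione and redox genes 17 rose and 7 fell (median 0.69). Gss, glutathione synthetase, rose from 23.8 and 16.6 CPM to 153 CPM (84.3 to 209), a log2 fold change of 2.66 ± 0.24 (adjusted p = 1.2e-05). Nqo1, a quinone reductase, had no count in primed Oct4GIP, 9.45 CPM in primed 129/MSM and 115 CPM (66.5 to 181) in reverted cells. Txnip, which binds thioredoxin and restrains glucose uptake, was at 763 and 259 CPM in primed cells and 115 CPM (52.6 to 158) in reverted cells. Amino acid transporters went both ways. Slc7a7, an exchanger, fell from 122 and 119.9 CPM to 10.2 CPM (3.40 to 19.5). Slc7a1, an arginine importer, rose from 143 and 109 CPM to 287 CPM (242 to 295). Slc2a1, the glucose transporter, was at 272 and 1279 CPM in primed cells and 159 CPM (89.8 to 202) in reverted cells, with changes of -0.64 in Oct4GIP and -3.75 in 129/MSM (interaction adjusted p = 9.5e-04). Over all 211 tested solute carriers 59 rose and 64 fell, shares of 28.0% and 30.3%. With primed Oct4GIP left out the redox list gave 10 rises and 3 falls, and the solute carriers 39 and 41.

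Ribosomal protein genes differed more between the primed libraries of the lines than between the states. Of 82 tested ribosomal protein genes 4 rose and 2 fell, yet 46 had a line-by-state interaction (background 7.47%). They took 6.97% of all counts in the primed Oct4GIP library, against 4.25% in its 129/MSM counterpart and 4.81% (4.67 to 5.29) in the reverted libraries. The primed libraries thus lay on either side of all 7 reverted libraries, and the median change was -0.43 in Oct4GIP and 0.33 in 129/MSM. The reverted libraries of the lines overlapped, with shares of 4.67% to 5.05% in Oct4GIP and of 4.92% and 5.29% in 129/MSM. In the primed libraries an effect of line, feeders or base medium and a difference between single libraries cannot be told apart. Rpl10l and Rpl39l, copies used in the germline, were an exception with no primed count and 80.4 CPM (18.0 to 112) and 14.5 CPM (6.89 to 51.3) in reverted cells, at least 58.5-fold and 20.7-fold higher. Of 68 tested translation factors 19 rose and 6 fell (median 0.21, the same with genes absent from primed cells at their bound). Of 66 tested chaperones 18 rose and 11 fell (median 0.22). Of 46 tested proteasome genes 16 rose and 0 fell (median 0.26). Hsp90aa1, a chaperone of kinases and receptors, rose from 806 and 1116 CPM to 4347 CPM (3776 to 5448), a log2 fold change of 2.26 ± 0.21 (adjusted p = 1.4e-05), and the small heat shock protein Hspb1 rose from 12.8 and 13.0 CPM to 222 CPM (168 to 265), a log2 fold change of 4.07 ± 0.28 (adjusted p = 1.6e-06). The counts of these lists moved with the primed library used. Without primed Oct4GIP 17 ribosomal protein genes rose and 0 fell, and without primed 129/MSM 3 rose and 54 fell. Translation factors gave 11 rises and 2 falls, and proteasome genes 4 rises and 0 falls, without primed Oct4GIP.

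Targets of the integrated stress response fell mainly in Oct4GIP. Of 33 tested members 16 fell and 1 rose, with a median of -1.10 in Oct4GIP alone, 0.04 in 129/MSM alone and 8 members with an interaction. Atf4, the factor that gives the list its name, was at 688 and 381 CPM in primed cells and 439 CPM (319 to 505) in reverted cells, which overlaps. Asns, asparagine synthetase, did not follow the fall and was at 878 CPM in primed Oct4GIP and 264 CPM in primed 129/MSM, with all 7 reverted libraries between 679 and 1015 CPM. Its change was -0.01 in Oct4GIP and 1.82 in 129/MSM (interaction adjusted p = 0.0059). Leaving out primed Oct4GIP gave 6 rises, that of Asns among them, and 3 falls, and leaving out primed 129/MSM brought Atf4 past the test as lower (-0.71). The composite element bound by ATF4 and CEBP proteins, searched as TTGCATCA or TTGCGTCA on either strand, lay in 4 of the 14 promoter windows found for the 16 fallen members (28.6%) and in 7 of 27 for tested members whatever their call (25.9%), against 1.77% of tested genes. The example with a pair of such words before the start is Slc7a11, the cystine importer.
Slc7a11 (GRCm38.p6 chr3:50443621-50443692, minus strand): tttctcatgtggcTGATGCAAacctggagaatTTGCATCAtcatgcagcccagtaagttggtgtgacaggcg
Slc7a11 fell from 38.5 and 8.15 CPM to 3.31 CPM (0.927 to 7.19), a change of -3.08 in Oct4GIP alone and -2.14 in 129/MSM alone. The call was lost without primed Oct4GIP.

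Lysosome and autophagy genes were near evenly divided, with 16 of 47 higher and 12 lower, and of the factors that drive them Tfeb and Mitf rose while Tfe3 did not pass the test (log2 fold change 0.09, adjusted p = 0.63). Tfeb rose from 3.77 and 5.87 CPM to 53.8 CPM (40.5 to 96.5), a log2 fold change of 3.76 ± 0.27 (adjusted p = 2.6e-06). Mitf was at 1.89 and 3.58 CPM in primed cells and 64.4 CPM (56.2 to 113) in reverted cells, a log2 fold change of 4.66 ± 0.42 (adjusted p = 1.2e-05). Among the lysosomal enzymes Lipa, the acid lipase, and Ctsd, cathepsin D, fell by 1.86 and 0.82 on the log2 scale.

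Enzymes of DNA methylation changed in opposite directions by role. Of 20 tested members of the list 9 rose and 5 fell (median 0.31, the same with genes absent from primed cells at their bound). The de novo methyltransferases were lower. Dnmt3a fell from 146 and 127 CPM to 54.9 CPM (41.2 to 81.9), a log2 fold change of -1.28 ± 0.23 (adjusted p = 0.0011). Dnmt3b had 244 CPM in primed Oct4GIP, 892 CPM in primed 129/MSM and 106 CPM (42.5 to 227) in reverted cells, and its change was -0.63 in Oct4GIP alone and -4.24 in 129/MSM alone (interaction adjusted p = 0.018). The enzymes that copy methylation after replication were higher. Dnmt1 rose from 181 and 259 CPM to 516 CPM (467 to 573). Uhrf1, which brings Dnmt1 to newly copied DNA, was at 132 and 229 CPM in primed cells and 841 CPM (649.7 to 955) in reverted cells. The Tet enzymes, which oxidize methylcytosine, split. Tet1 rose from 103 and 139 CPM to 515 CPM (421 to 645). Tet2 rose from 34.3 and 51.5 CPM to 177 CPM (152 to 361). Tet3 was at 52.8 and 79.5 CPM in primed cells and 12.7 CPM (4.57 to 22) in reverted cells. In none of these 7 genes did the primed and reverted libraries overlap, as was so in 43.5% of all genes tested. DNA methylation itself was not measured in these libraries. Dnmt3b, called lower overall (log2 fold change -2.70 ± 0.71, adjusted p = 0.01), lost its call without primed 129/MSM (-0.65), reverted 129/MSM AICAR (-2.19) or 129/MSM AICAR+LIF (-2.06).

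Many genes of the germline that DNA methylation keeps silent in somatic cells rose. Of the 47 listed, 34 passed the filter on low counts, and of these 29 rose and 3 fell. Of the 34, 16 had no primed count, passed the filter only through the reverted libraries and could only be called higher. The other 12 with a row in the count table stayed below the filter. Over the whole list 27 genes had no count in either primed library, and the summed level was 123 and 48.6 CPM in the primed libraries and 1188 CPM (774 to 1620.1) in the reverted ones. Tdrd12, a Tudor protein of the piRNA pathway, had no primed count and 63.6 CPM (28.0 to 97.0), at least 52.6-fold higher. Mael, which works in the same pathway, reached 6.50 CPM (0.397 to 8.42), at least 4.81-fold higher. Ddx4, a helicase of germ cells, was at 16.6 and 0 CPM in primed cells and 21.4 CPM (5.82 to 26.8) in reverted cells. Primed Oct4GIP lay within its reverted range, and the gene did not pass the test (adjusted p = 0.21). Zcwpw1, which reads meiotic histone marks, fell (log2 fold change -1.35 ± 0.30, adjusted p = 0.004). Leaving out primed Oct4GIP brought Ddx4 past the test (7.02) and cost Mael (4.54) and Zcwpw1 (-0.54) their calls. The E-box CACGTG, bound by the MGA and MAX subunits of a Polycomb complex that silences such genes, was found in 8 of 25 risen members with a window (of 29 in all) (32%) and in 10 of 30 tested members whatever their call (33.3%), against 12% of tested genes with a window and 14.4% of those called higher. The 3 risen members with the largest change and a word before the start are shown.
Hormad1 (GRCm38.p6 chr3:95559625-95559676, plus strand): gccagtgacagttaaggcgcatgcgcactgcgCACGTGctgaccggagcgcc
Stk31 (GRCm38.p6 chr6:49395452-49395521, plus strand): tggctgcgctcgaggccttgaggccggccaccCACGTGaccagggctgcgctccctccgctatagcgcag
Fkbp6 (GRCm38.p6 chr5:135350045-135350113, minus strand): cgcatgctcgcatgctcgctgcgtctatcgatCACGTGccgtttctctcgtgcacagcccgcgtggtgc
Hormad1, a protein of meiotic chromosome axes that also lies in a stretch of chromosome 3 described below, went from no primed count to 25.8 CPM (12.2 to 67.7), at least 34.8-fold higher. Stk31, a kinase of germ cells, went from no primed count to 17.9 CPM (6.65 to 45.4), at least 17.0-fold higher. Fkbp6, a cochaperone of the piRNA pathway, had 1 primed count and 49.7 CPM (30.4 to 78.8), a ratio of 296 (95% exact Poisson interval 53.2 to 11699.8). These sequences, and those given above and below, come from RefSeq promoter windows, and a word in a window is a description of its letters only.

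**Figure D3:**
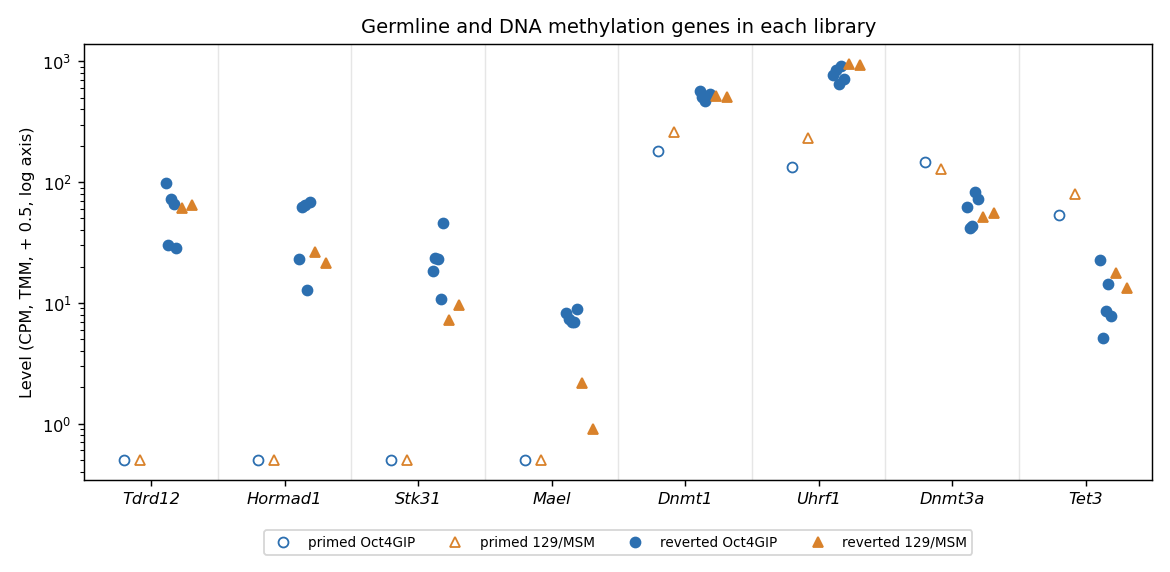
Levels of 8 genes of DNA methylation and the germline in each library (CPM scaled with TMM factors plus 0.5, log axis, symbols as in the plot of metabolism genes). Every reverted library of Tdrd12, Hormad1 and Stk31 lies above both primed libraries, which hold no count, and Dnmt3a and Tet3 show the opposite order.

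Several silencing factors rose, while genes named Zfp stayed near the background. Of 30 tested genes of retroelement and heterochromatin silencing 17 rose and 5 fell (median 0.52). Trim28, the corepressor that KRAB zinc finger proteins recruit, rose from 524 and 648 CPM to 1658 CPM (1368 to 1744), a log2 fold change of 1.47 ± 0.16 (adjusted p = 3.4e-05). Zfp57, which protects imprints, was at 98.8 and 87.3 CPM in primed cells and 354 CPM (229 to 471) in reverted cells. Tasor, of the HUSH complex, rose from 40.0 and 40.1 CPM to 168 CPM (145 to 185). Morc1, a repressor of transposons in germ cells, rose from 0.754 and 0.652 CPM to 169 CPM (131 to 221), a log2 fold change of 7.95 ± 0.32 (adjusted p = 5.4e-08). Suv39h1, a histone H3 lysine methyltransferase, fell (log2 fold change -1.89 ± 0.31, adjusted p = 6.0e-04). Of 346 tested genes named Zfp 96 rose (27.7%) and 60 fell (17.3%), against 22.5% and 21.3% of all genes. Without primed Oct4GIP 71 rose and 31 fell.

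Zinc finger genes with some of the largest rises are neighbours. Stretches in which running medians of 21 genes lay at least 0.8 on the log2 scale below the reverted median in both primed libraries were reported on 4 chromosomes. They came from a scan over gene order made after the data were seen, so the counts within them describe the scan and test nothing. Shared runs with few tested genes, among them runs on chromosomes 5 and 7, were left out. On chromosome 13 (GRCm38 chr13:65064663-66998401) 35 of 44 tested genes were called higher and 0 lower, and 25 had no count in either primed library. Zfp640 in this stretch had 1 primed count and 49.7 CPM (39.0 to 83.1) in reverted cells, a ratio of 312 (95% exact Poisson interval 56.0 to 12323). Genes of ordinary function lie in the same stretch, and 2 of them, Uqcrb, a subunit of respiratory complex III, and Ptdss1, a phosphatidylserine synthase, did not pass the test. On chromosome 4 (chr4:144391674-147670854) 36 of 46 tested genes were called higher and 1 lower, and 15 of the tested genes are named Zfp. Rex2, a zinc finger gene there, was at 3.77 and 1.96 CPM in primed cells and 286 CPM (221 to 364) in reverted cells. Zfp980 rose from 9.05 and 3.26 CPM to 521 CPM (396 to 637). Zfp990 rose from 10.6 and 16.3 CPM to 524 CPM (403 to 601). Vps13d, a lipid transfer protein encoded in the same stretch, was at 38.5 and 44.6 CPM in primed cells and 76.9 CPM (58.4 to 102) in reverted cells, a much smaller rise. The stretch on chromosome 2 (chr2:175270556-177478129) had 21 of 33 tested genes called higher and 0 lower. The stretch on chromosome 12 (chr12:20615343-21373632) had 5 of 11 called higher and 0 lower. These clusters hold near-identical copies, so reads may have been assigned to the wrong copy and the level of any 1 gene is uncertain. Vps13d lost its call without primed Oct4GIP (0.65), and Ptdss1 passed the test, as higher, without reverted 129/MSM AICAR (0.58).

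Other families of the X chromosome and the placenta and germ line joined them. Of 25 tested Rhox, Mage and Pramel family genes 19 rose and 3 fell, and 43 of the 68 in the list stayed below the filter. Of the 25 tested, 14 had no primed count, passed the filter only through the reverted libraries and could only be called higher. Pramef12 had no primed count and 55.9 CPM (50.7 to 83.8), at least 55.1-fold higher. Mageb16 had 1 primed count and 29.9 CPM (17.9 to 39.7), a ratio of 168 (95% exact Poisson interval 30.2 to 6654). Without primed Oct4GIP 8 of these genes rose and 2 fell.

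Of 35 tested genes of Polycomb complexes 12 rose and 6 fell (median 0.10). The core subunits Eed and Suz12 rose by 1.33 ± 0.17 and 1.48 ± 0.21, and the accessory subunits Mtf2 and Epop by 1.85 ± 0.16 and 3.52 ± 0.39 on the log2 scale. Of the Hox genes, which Polycomb complexes hold silent, 5 of 39 passed the filter and 4 of these rose. Imprinted genes leaned downward, with 14 of 34 lower and 6 higher. Igf2, a growth factor expressed from the paternal allele, fell from 62.6 and 201 CPM to 0.416 CPM (0 to 1.81), a log2 fold change of -6.87 ± 0.44 (adjusted p = 1.2e-06). Grb10, an adaptor that restrains insulin signalling, fell from 599.8 and 1604 CPM to 43.2 CPM (21.9 to 82.7), a log2 fold change of -4.29 ± 0.26 (adjusted p = 8.2e-07). Gnas, a G protein subunit, was at 879 and 1010.5 CPM in primed cells and 115 CPM (77.0 to 159) in reverted cells. The long RNA Meg3 fell from 639 and 473 CPM to 239 CPM (156 to 428). H19 was at 0 CPM in primed Oct4GIP and 344 CPM in primed 129/MSM and at 3.18 CPM (0 to 33.1) in reverted cells, and did not pass the test (adjusted p = 0.27). Without primed Oct4GIP 2 Hox genes rose, Meg3 lost its call (-0.79) and H19 passed the test as lower (-5.17).

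Of 39 tested small RNA and RNA-binding regulators 12 rose (30.8%) and 8 fell (20.5%). The median was 0.36, the same with genes absent from primed cells at their bound. Some members had no overlap between groups, as did 43.5% of all genes tested. Esrp1, an epithelial splicing factor, fell from 56.6 and 137 CPM to 0 CPM (0 to 3.01), a log2 fold change of -6.82 ± 0.65 (adjusted p = 1.8e-05). Lin28a, which blocks the maturation of let-7 microRNAs, was at 332 and 462 CPM in primed cells and 107 CPM (52.4 to 127) in reverted cells. Its paralog Lin28b fell from 115 and 108 CPM to 24.5 CPM (9.15 to 27.8). Ago2, the small RNA effector, rose by 1.11 ± 0.18.

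Genes of DNA synthesis rose in large part. Of 44 tested replication genes 31 rose and 0 fell, with a median of 0.92 (1.17 in Oct4GIP alone, 0.73 in 129/MSM alone). That share, 70.5%, stands against 22.5% over all genes. Rpa2, of the complex that coats single-stranded DNA, rose from 32.8 and 42.4 CPM to 105 CPM (91.1 to 116), a log2 fold change of 1.46 ± 0.17 (adjusted p = 7.4e-05). Pcna, the sliding clamp, was at 113 and 172 CPM in primed cells and 344 CPM (297 to 366) in reverted cells. Of 45 tested repair genes 23 rose and 0 fell, among them Brca1 at 38.1 and 83.7 CPM in primed cells and 187 CPM (145 to 234) in reverted cells, a log2 fold change of 1.80 ± 0.20 (adjusted p = 5.0e-05). The words TTTGGCGC, TTTCCCGC, TTTGCCGC and TTTCGCGC, forms of the E2F site, were searched on both strands of the promoter windows. One or more lay in 10 of 25 risen replication genes with a window (of 31 in all) (40%), in 14 of 35 tested members whatever their call (40%), in 4.93% of tested genes and in 5.83% of those called higher. The 3 risen members with the largest change and a word before the start are shown.
Pola1 (GRCm38.p6 chrX:93632254-93632325, minus strand): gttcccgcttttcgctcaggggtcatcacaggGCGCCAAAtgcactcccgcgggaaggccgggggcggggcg
Cdc6 (GRCm38.p6 chr11:98907981-98908052, plus strand): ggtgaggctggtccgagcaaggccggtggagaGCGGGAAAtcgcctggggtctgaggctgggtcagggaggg
Mcm5 (GRCm38.p6 chr8:75109328-75109399, plus strand): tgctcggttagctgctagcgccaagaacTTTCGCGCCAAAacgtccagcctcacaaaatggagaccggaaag
Pola1, the catalytic subunit of the polymerase that starts new strands, rose from 53.9 and 94.5 CPM to 186 CPM (166 to 211). Cdc6, a loader of the helicase, rose from 13.9 and 47.2 CPM to 70.7 CPM (59.6 to 89.9). Mcm5, a helicase subunit, was at 155 and 224 CPM in primed cells and 462 CPM (401 to 566) in reverted cells. Capitals in Mcm5 mark a pair of overlapping words. Cdc6 lost its call without primed Oct4GIP (0.52).

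Cell-cycle entry genes changed in both directions. Of 38 tested G1 cyclins, CDK inhibitors and p53 targets 13 fell and 7 rose (median -0.18). Ccnd2, the D-type cyclin of primed cells, fell from 254 and 202 CPM to 3.09 CPM (0.397 to 4.51), a log2 fold change of -6.58 ± 0.36 (adjusted p = 4.1e-07), while Ccne1, which acts later in G1, rose from 14.7 and 60.9 CPM to 94.6 CPM (79.8 to 114), a log2 fold change of 1.56 ± 0.36 (adjusted p = 0.0051). E2f1, the factor that both cyclins help release, was at 20.7 and 24.8 CPM in primed cells and 82.4 CPM (49.3 to 95.8) in reverted cells. Rb1, its restraint, fell from 82.2 and 39.8 CPM to 14.9 CPM (13.7 to 35.2). Trp53 rose by 0.99 ± 0.15, while Cdkn1a, one of its targets, overlapped between groups (adjusted p = 0.77) and Bbc3 and Perp, others of its targets, fell by 2.31 ± 0.41 and 4.55 ± 0.45. Of 32 tested apoptosis genes 11 fell and 5 rose (median 0.04). Bcl2, which protects from cell death, fell from 17.3 and 9.45 CPM to 1.19 CPM (0 to 1.63). Bbc3 lost its call without primed Oct4GIP (-1.57).

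Immune genes split by arm. Of 22 tested interferon response and sensing genes 12 rose and 0 fell (median 1.29, the same with genes absent from primed cells at their bound). Ifitm1, a membrane restriction factor, was at 6.79 and 2.93 CPM in primed cells and 142 CPM (60.8 to 182) in reverted cells, a log2 fold change of 4.44 ± 0.27 (adjusted p = 9.0e-07). Trim25, a ubiquitin ligase of RNA sensing, had no count in primed Oct4GIP, 13.0 CPM in primed 129/MSM and 224 CPM (202 to 255) in reverted cells. Of 20 tested antigen presentation genes 7 fell and 1 rose (median -0.59). Tap1, the peptide transporter, fell from 82.9 and 31.3 CPM to 1.79 CPM (1.24 to 5.72), a log2 fold change of -4.59 ± 0.40 (adjusted p = 9.5e-06), and the class I chains H2-K1 and B2m fell by 2.26 ± 0.21 and 2.19 ± 0.22 on the log2 scale. Without primed Oct4GIP 6 interferon response genes rose and 0 fell.

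The X chromosome was also compared within each line because Oct4GIP is XX and 129/MSM is XY. Xist, the RNA that coats the inactive X, fell from 618 and 21.2 CPM to 0.765 CPM (0.309 to 1.79), a log2 fold change of -8.91 ± 0.40 (adjusted p = 1.1e-07). Only the primed Oct4GIP library held it at a high level. Ddx3y, a Y-linked helicase, had 0 or 1 count in each of the 6 Oct4GIP libraries and 237 to 379 counts in each of the 3 of 129/MSM. The share of counts from X-linked genes was 3.51% and 3.73% in the primed libraries and 3.05% (2.95 to 3.13) in the reverted ones. The difference of means was -0.571 percentage points (two-sided exact permutation p = 0.0278, the smallest that 36 splits allow). Those splits exchange libraries between an XX and an XY line. Within the lines the difference was -0.479 in Oct4GIP (exact permutation p = 0.167) and -0.636 in 129/MSM (exact permutation p = 0.333), each the smallest p that its libraries allow, so neither could reach 0.05. In both lines every reverted library lay below the primed one. With either primed library left out the smallest p that the remaining splits allow is 0.125, and that was the value. Of 564 tested X-linked genes 123 rose (21.8%) and 140 fell (24.8%), shares near those of all genes.

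The reverted libraries were alike for most genes. Over 6481 genes with a median log2 level of at least 5 among them, the median SD over the 7 libraries was 0.21 on the log2 scale, and 43 genes (0.66%) had an SD above 1. In each Oct4GIP library 0 to 2 genes lay at least 4-fold above the median of the other 6 libraries and 0 to 4 at least 4-fold below it. In the 129/MSM libraries 5 and 4 genes lay above and 18 and 15 below. Stra8, a gene of meiotic entry, illustrates the difference, with 1.19 and 2.08 CPM in reverted 129/MSM and 31.0 to 98.8 CPM in reverted Oct4GIP. Zdbf2, an imprinted gene, had 145 and 204 CPM in reverted 129/MSM against 10.8 to 85.3 CPM in reverted Oct4GIP. Myof, a membrane repair protein, had the opposite order, at 11.2 and 21.1 CPM in reverted 129/MSM and 94.2 to 179 CPM in reverted Oct4GIP. Stra8 was called higher overall (log2 fold change 9.31 ± 1.40, adjusted p = 5.0e-04) but not without primed Oct4GIP (5.19). Myof did not pass the test for the state, fell without primed Oct4GIP (-2.14) and rose without primed 129/MSM (5.56).

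Several of the most variable genes were neighbours on chromosome 3. In a stretch from Mrpl9 to Sf3b4 (GRCm38 chr3:94443318-96177564), found after the data were seen, the 38 expressed genes were compared with the mean of the 2 reverted 129/MSM libraries. The median ratio was 3.96 in primed Oct4GIP, 3.91 in metformin+LIF, 3.71 in AICAR+LIF, 2.66 in A769662, 1.59 in AICAR and 1.11 in A769662+LIF, all Oct4GIP, and 1.02 in primed 129/MSM. The 21 expressed genes on either side had median ratios of 0.749 to 1.39 over the same libraries. Genes in the stretch are members of lists above, including Setdb1, a histone methyltransferase, which was at 524 and 106 CPM in primed cells and 396 CPM (164 to 1014) in reverted cells. Mcl1, a survival factor, was at 1078 and 179.6 CPM in primed cells and 516 CPM (302 to 1328) in reverted cells. Values of Setdb1, Mcl1, Psmd4, Psmb4, Mrpl9, Mrps21 and Hormad1, among others, therefore carry this spread among the reverted Oct4GIP libraries. Cgn is not among the 38 expressed genes, and its spread was not compared. DNA copy number was not measured in these files.

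**Figure D4:**
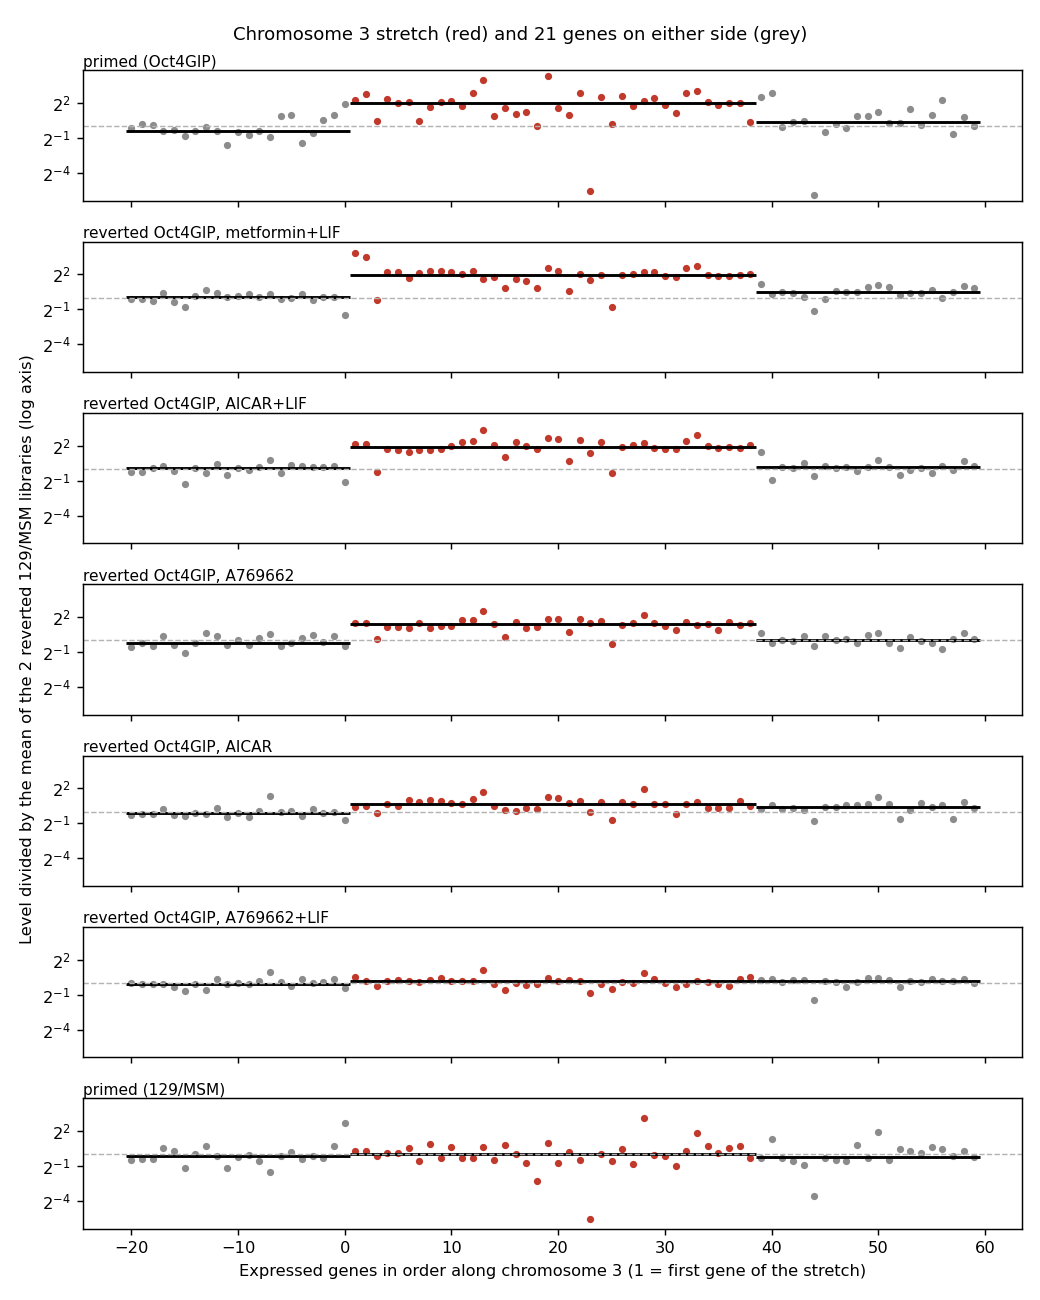
Ratio of each library's level to the mean of the 2 reverted 129/MSM libraries (log axis) for the 38 expressed genes of the chromosome 3 stretch and the 21 expressed genes before and after it, in gene order. Horizontal bars mark the median of each block. The stretch is raised in primed Oct4GIP and in 4 of the 5 reverted Oct4GIP libraries by differing amounts, with medians from 1.59 to 3.96.

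Most genes called in both lines moved the same way. With each line fitted alone, 3380 genes were called in both, 3216 of them in the same direction and 164 in opposite directions. The test of the line-by-state interaction called 1084 of 14506 genes (7.47%), 444 (3.06%) with a more positive and 640 (4.41%) with a more negative change in 129/MSM. The named cases differed between the primed libraries by more than among the reverted ones. Amot, a scaffold of the Hippo pathway, was at 24.1 and 2722 CPM in primed cells and 6.02 CPM (2.38 to 7.73) in reverted cells (interaction adjusted p = 2.6e-04). Fzd5, a WNT receptor, was at 40.0 and 678 CPM in primed cells and 113 CPM (86.3 to 163) in reverted cells. Tfrc, the transferrin receptor, was at 46.4 and 450.3 CPM in primed cells and 504 CPM (435 to 584) in reverted cells. Scd1, a fatty acid desaturase, was at 18.1 and 462 CPM in primed cells and 579.7 CPM (425 to 655) in reverted cells. In these 4 genes primed 129/MSM held the higher primed level. The opposite order was seen in Mad2l1, of the spindle checkpoint, which was at 592 and 84.7 CPM in primed cells and 106 CPM (94.6 to 112) in reverted cells. Gdi2, a regulator of Rab proteins, was at 1937 and 590.5 CPM in primed cells and 424 CPM (368 to 454) in reverted cells. In Prdm1, a transcriptional repressor, primed 129/MSM again held the higher primed level. Prdm1 had no count in primed Oct4GIP, 55.7 CPM in primed 129/MSM and 17.6 CPM (12.1 to 27.8) in reverted cells. Each line has 1 primed library, so a difference between the lines and a difference between those 2 libraries cannot be told apart. The interaction calls numbered 560 without reverted 129/MSM AICAR and 386 without reverted 129/MSM AICAR+LIF. For the state itself Fzd5 and Prdm1 were called lower without primed Oct4GIP (-2.21 and -2.11) and higher without primed 129/MSM (1.38 and 8.89). Tfrc, called higher (log2 fold change 1.59 ± 0.56, adjusted p = 0.039), lost its call without primed Oct4GIP (0.29) or any reverted Oct4GIP library (1.53 to 1.59), and Mad2l1 (log2 fold change -1.59 ± 0.41, adjusted p = 0.0086) changed sign to 0.36 without primed Oct4GIP. Scd1 was called higher only without primed 129/MSM (4.88) or reverted 129/MSM AICAR (2.77).

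**Figure D5:**
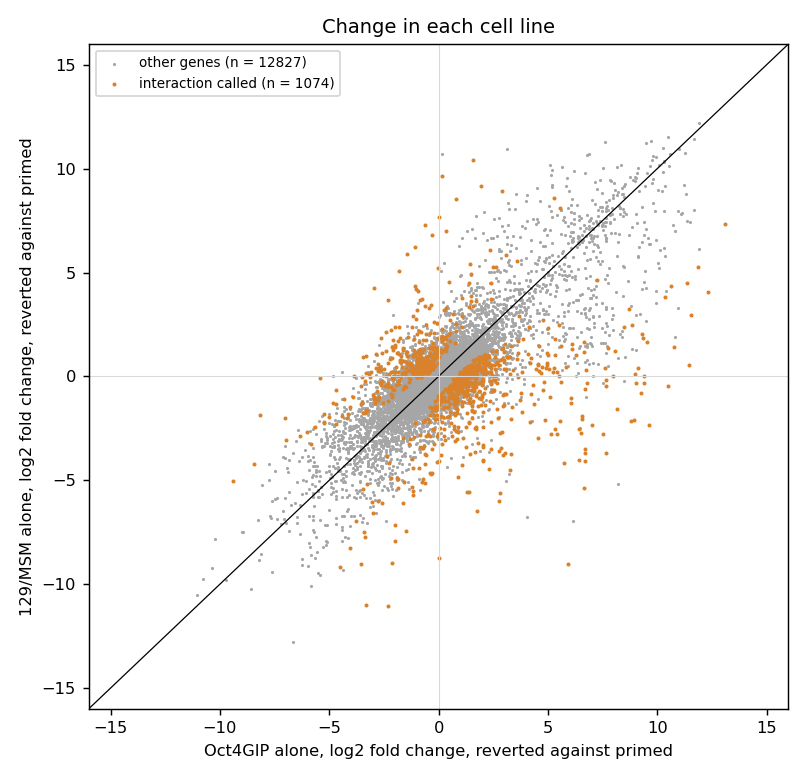
Log2 fold change of reverted against primed in 129/MSM alone (vertical) plotted against Oct4GIP alone (horizontal) for 13901 genes, with the 1074 of them called for the line-by-state interaction in orange and the others in grey. Most grey points lie along the diagonal of equal change, with 440 orange points above it and 634 below it.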

How the data were processed

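RNA was measured in 22 libraries, of which the 7 reverted d16+10p and 2 primed libraries were compared here. The deposited file holds raw counts of reads per Ensembl gene, 34489 genes in all. According to the study's methods and the submitters' processing notes, the authors made stranded mRNA libraries with single reads, demultiplexed them with bcl2fastq, mapped the reads with Bowtie2 2.2.5 to the cDNA and ncRNA sequences of GRCm38 (Ensembl release 100) and kept reads of mapping quality 1 or more, so reads of near-identical copies may be misplaced. The deposited transcript table and the table of detected genes were not used. Totals of 1689495 to 3380314 counts set the floors given in the text (3 counts). Libraries are not stated to be separate cultures of one condition.

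Genes passing filterByExpr were fitted with edgeR 4.0.16 (R 4.3.3, TMM factors, quasi-likelihood test, cell line as covariate, Benjamini-Hochberg over all genes tested, threshold 0.05), and the line-by-state interaction in the same way. The fits were tested on simulated data with known changes. Shares of counts were compared by exact permutation over libraries. Alternatives were DESeq2 1.42.0, limma 3.58.1 voom, other filters and scalings, thinned counts, each line alone and each library left out. Groups and lines came from the labels. Gene positions are those of the GENCODE annotation of GRCm38, promoters those of RefSeq GRCm38.p6, and promoter words were searched in Python 3.11.15.

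The comparison, the 75 gene lists and the named genes were chosen with earlier results of these data known, and the hypoxia list, the promoter words and the chromosome stretches after these values were seen. Named genes are marked list members, up to 4 called members per direction with the largest change and a mean log2 CPM of at least 3, up to 12 genes per direction over the whole table (mean log2 CPM of at least 4, no overlap, same direction in both lines) and up to 8 interaction genes per sign. The exceptions are Cdc6, Fkbp6, Fzd10, Fzd7, Hormad1, Mcl1, Mcm5, Mrpl9, Mrps21, Myof, Nkd1, Nkd2, Plod1, Pola1, Psmb4, Psmd4, Ptdss1, Rex2, Sf3b4, Slc7a11, Stk31, Tfap2a, Uqcrb, Vps13d, Zdbf2, Zfp640, Zfp980 and Zfp990, chosen after their values were seen. A few genes that the rule names are not reported here.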

Additional observations from a re-analysis of the deposited data

Results flagged for a closer look

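In 12 of 229 genes and 2 of 63 list sums, 1 of the 7 reverted libraries stood apart, in that its gap to the nearest other library exceeded the share of the whole range given by Dixon's 95% limit for 7 samples. Of the 3 shares of counts 0 did so, and chance alone gives about 1 in 20 groups. Reverted 129/MSM AICAR was highest for the sum of naive pluripotency factors (8145 CPM, the next library 7053 CPM, share of the range 0.623) and Soat1 (62.0 CPM, the next library 27.4 CPM, share of the range 0.654). Reverted Oct4GIP A769662 was highest for the sum of solute carriers (11966 CPM, the next library 11614 CPM, share of the range 0.593) and Cdkn1a (368 CPM, the next library 266 CPM, share of the range 0.605). Reverted Oct4GIP AICAR was highest for Cpt1a (579.8 CPM, the next library 342 CPM, share of the range 0.594). Reverted Oct4GIP A769662+LIF was highest for Cyp26a1 (0.383 CPM, the next library 0 CPM, share of the range 1). Reverted Oct4GIP AICAR+LIF was highest for Dcn (0.653 CPM, the next library 0 CPM, share of the range 1). Reverted Oct4GIP metformin+LIF was highest for Esrp1 (3.01 CPM, the next library 0.765 CPM, share of the range 0.746), Mrpl9 (549 CPM, the next library 173 CPM, share of the range 0.735), Stk31 (45.4 CPM, the next library 22.9 CPM, share of the range 0.582) and Tap1 (5.72 CPM, the next library 2.78 CPM, share of the range 0.655). Reverted 129/MSM AICAR+LIF was highest for Lefty1 (143 CPM, the next library 74.9 CPM, share of the range 0.578), Lefty2 (642 CPM, the next library 308 CPM, share of the range 0.569) and Ocln (7.55 CPM, the next library 3.40 CPM, share of the range 0.653). Mrpl9 lies in the chromosome 3 stretch described above. Dcn, Cyp26a1 and Esrp1 were at or near 0 in the other libraries.

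The change between states differed between the lines in 1084 of 14506 genes, and 34 of the 229 genes named here are among them. The adjusted p of the interaction test (edgeR) is given after each gene. The change was more positive in 129/MSM for Asns (0.0059), Ddx4 (0.048), Gdi2 (0.0026), Mad2l1 (2.6e-04), Pdk1 (0.037), Soat1 (0.038), Tcf7 (0.041) and Xist (0.033). It was more negative in 129/MSM for Amot (2.6e-04), Ccn1 (0.028), Ccne1 (0.01), Cdc6 (0.016), Cdh1 (0.023), Cldn4 (0.0028), Dnmt3b (0.018), Etv4 (0.046), Fn1 (4.0e-04), Fzd5 (4.0e-04), Fzd7 (0.048), Gli2 (0.018), Kdm3a (0.013), Loxl2 (0.016), Myof (5.8e-04), Nqo1 (0.014), Patj (0.045), Podxl (0.013), Prdm1 (5.2e-04), Scd1 (3.7e-04), Slc2a1 (9.5e-04), Tbx3 (0.025), Tcf7l1 (0.0072), Tfrc (3.7e-04), Tpm1 (0.046) and Trim25 (0.001). Each line has 1 primed library, so the lines and those libraries cannot be told apart, and the count was 560 or 386 when reverted 129/MSM AICAR or AICAR+LIF was left out.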

How the results depend on the processing

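The number of genes called for the state stayed within 1.5 times of 6363 under every alternative run, from 4591 with a mean of at least 10 CPM to 7275 with no filter, and from 4846 to 7131 with 1 library left out. DESeq2 called 6370, limma voom 6352, edgeR without normalization factors 6312 and edgeR on libraries thinned to the smallest total 5615. The interaction was called for 878 genes with AICAR and AICAR+LIF libraries only, 995 with DESeq2 and 1271 with no filter, and for 386 to 1139 with 1 reverted library left out. The X-linked share differed by -0.479 percentage points in Oct4GIP alone and by -0.680 to -0.461 with 1 library left out, and in Oct4GIP alone or without a primed library the design could not reach 0.05. The mitochondrially encoded share differed by -0.313 to 0.101 with 1 library left out and passed the test in none of these settings. Of the genes named here 221 were tested under DESeq2, and 219 kept their direction and side of the threshold. Fewer did so in 129/MSM alone (192 of 218) and without primed Oct4GIP (192 of 221). The direction changed for Fzd5 (1.40) and Prdm1 (8.94) in Oct4GIP alone, and for Mad2l1 (0.37), Myof (-2.13) and Zdbf2 (0.74) in 129/MSM alone. With 1 library left out, log2 fold changes ran from -2.21 to 1.38 for Fzd5, -2.52 to 0.36 for Mad2l1, -2.14 to 5.56 for Myof and -2.11 to 8.89 for Prdm1. Of the log2 fold changes of 190 called genes named here, 28 moved by over 1.5 times without primed Oct4GIP and 26 without primed 129/MSM. The cause of these changes was not tested. Of 63 lists 14 changed their number of called members by over 1.5 times with the filter at 10 CPM, where fewer genes are tested, 12 with AICAR and AICAR+LIF libraries only and 0 without normalization factors. No paired analysis was possible because the labels give no replicate numbers that link primed and reverted libraries. At these depths a gene under about 1 CPM in a primed library cannot be told from absent.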

Other observations

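Gene lists not described above held further members with large changes. Of 42 tested potassium, sodium and calcium channel genes 10 rose and 18 fell (median -0.26, the same with genes absent from primed cells at their bound). Trpm1, a cation channel, rose from 1.13 and 0.978 CPM to 163 CPM (44.9 to 194), a log2 fold change of 6.86 ± 0.81 (adjusted p = 6.9e-05). Of 32 tested genes of metal transport and metallothioneins 6 rose and 10 fell (median 0.04). Slc30a2, a zinc transporter, rose from 1.13 and 0 CPM to 42.3 CPM (27.7 to 49.4), a log2 fold change of 6.09 ± 0.57 (adjusted p = 1.5e-05). Slc39a14, an importer of zinc and iron, was at 74.3 and 55.7 CPM in primed cells and 4.21 CPM (1.79 to 16.6) in reverted cells, a log2 fold change of -3.25 ± 0.46 (adjusted p = 2.2e-04). None of these 3 genes overlapped between the states, as was so in 43.5% of all genes tested. Of 17 tested glutathione transferases 8 rose and 5 fell (median -0.39, but 2.07 in Oct4GIP alone and 0.58 in 129/MSM alone), a family with near-identical copies whose single levels are uncertain. Of 20 tested tetraspanins 11 fell and 2 rose (median -0.93). Cd9, a tetraspanin of the oocyte surface, rose from 52.0 and 86.0 CPM to 220.1 CPM (168 to 269), a log2 fold change of 1.80 ± 0.19 (adjusted p = 3.5e-05), while Tspan3 fell from 84.8 and 89.3 CPM to 32.1 CPM (28.0 to 42.1).

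Genes of retinol handling were mostly lower, with 8 of 15 tested members falling and 2 rising (median -0.85, the same with genes absent from primed cells at their bound). Rdh10, which oxidizes retinol to retinal, was at 36.6 and 12.7 CPM in primed cells and 7.51 CPM (5.17 to 8.80) in reverted cells, a log2 fold change of -1.85 ± 0.28 (adjusted p = 4.1e-04). Rdh11, a related reductase, fell from 264 and 111 CPM to 30.7 CPM (18.2 to 53.6), a log2 fold change of -2.56 ± 0.28 (adjusted p = 3.9e-05). Without primed Oct4GIP 0 members rose and 6 fell, and Rdh10 lost its call (-1.11). Cyp26a1, which degrades retinoic acid, did not pass the filter on low counts and had 0.377 CPM in primed Oct4GIP, 274 CPM in primed 129/MSM and at most 0.383 CPM in the reverted libraries. Of 40 tested genes of secretion and glycosylation 6 rose and 4 fell (median 0.09), shares of 15% and 10.0% that lie below those of all genes. Fut9, which makes the Lewis x epitope, rose from 23.4 and 7.49 CPM to 56.5 CPM (41.5 to 71.5), a log2 fold change of 1.79 ± 0.37 (adjusted p = 0.0028). Gcnt2, a branching enzyme of glycan chains, was at 6.41 and 4.24 CPM in primed cells and 55.9 CPM (44.5 to 69.2) in reverted cells, a log2 fold change of 3.41 ± 0.28 (adjusted p = 6.8e-06). Of 19 tested genes of creatine, polyamine and proline metabolism 8 rose and 1 fell (median 0.24). Dazl, an RNA-binding protein of germ cells, had no count in either primed library and 146 CPM (49.4 to 219) in reverted cells, at least 128-fold higher.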
